A study of Rattus norvegicus with 12 samples.

Results

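The genes described here mark hepatic stellate cells, the pericytes of the liver, and the collagen matrix that these cells and other fibroblasts lay down. The 9 genes are Col1a1, Col1a2, Col3a1, Dcn, Lum, Des, Acta2, Lrat and Hgf. They were chosen by name, and all probe sets of the array that the platform annotation gives to 1 of these symbols were taken. Des was read by 1367600_at, Lum by 1367749_at, Lrat by 1368570_at, Acta2 by 1370857_at, Dcn by 1370956_at, Col3a1 by 1370959_at and Hgf by 1387701_at. Col1a1 was read by 1388116_at and the dimmer 1370864_at, and Col1a2 by 1370155_at and the dimmer 1387854_at. This gave 11 probe sets for the 9 genes, out of 31042 probe sets and 14217 named genes. A further 5 probe sets name Acta2 together with Actc1 and were not used.

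Liver RNA of 12 male Wistar rats, an outbred laboratory strain, was measured on Affymetrix arrays. The rats were 5 weeks old per the labels and first ate the AIN93G diet, a purified rodent diet, for 4 days. In the 6 rats of the maple syrup group this diet then contained 20% maple syrup for 11 days. In the 6 rats of the sugar mix group it contained 20% of a syrup of similar sugar composition for the same time. All rats were fasted for 16 hours before dissection. The labels give 7 rats fed maple syrup and 8 fed the sugar mix, and those beyond 6 arrays a diet were not analysed here. Each array is labelled a biological replicate.

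In a resting liver, stellate cells lie between hepatocytes and the sinusoids and store vitamin A as retinyl esters. When the liver is injured they lose these stores, take on the features of contractile myofibroblasts and secrete fibrillar collagens, the process behind liver fibrosis. Lrat and Hgf are linked with the resting state, Acta2 and the collagen genes with the activated one. Des, the intermediate filament desmin, is a classical marker of rat stellate cells in either state.

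The values are a score deposited by the authors. Its levels, from 5.57 to 15.2, resemble log2 intensities, but its differences between arrays are far too small for that: the standard deviation (SD) between livers had a median of 7.13e-06 over the probe sets. No fold change can be read from it. Each liver is therefore given by its distance from the mean of the 12 livers in SDs of that probe set. A diet difference is given as Hedges' g (maple syrup minus sugar mix, in SDs between animals) with its 95% interval. Array medians differed by up to 0.000169, while probe sets typically spanned 2.38e-05 between their lowest and highest liver. The number of arrays limits the precision. In whole liver, fewer stellate cells and less RNA per cell cannot be told apart.

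Over the 12 livers Col1a1 varied with Col1a2 and with Lum, and Col1a2 varied with Col3a1, while 0 of the 9 genes passed the test between the diets. Of these pairs, that of Col1a1 and Col1a2 alone passed without maple syrup replicate 2. With maple syrup replicate 1, 5 or 6 or sugar mix replicate 1 left out alone, Col1a1 and Lum did not pass either. The pair of Col1a2 and Col3a1 also did not pass by Spearman rank correlation. The collagens were not shown to vary with Lrat, Hgf, Des or Dcn. All 12 of these correlations were above 0 with the scores as deposited, against 50.6% over all pairs of named genes. These 12 pairs share genes and livers, so they are not separate observations. With each array centred on its median, the pairs with Lrat or Dcn stayed above 0 (r from 0.29 to 0.56), and those that turned hold Des or Hgf. The SDs of Des and Hgf are below that of the array medians. The centred values of all pairs that hold either gene, turned or not, therefore say nothing of covariation. Acta2 had the widest diet difference, lower with maple syrup (g = -1.35), and did not pass over all probe sets.

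RefSeq sequence (build GRCr8) upstream of a start that matches the annotated gene was held for 5 of the genes. It is shown for Col1a2, the collagen gene in both correlated pairs of collagens, for Lrat and Hgf, the genes of the resting state, and for Acta2, which had the smallest diet p. Each line is the 100 bases, within the 250 before the start, that hold the most matches to CCAAT (the CCAAT box), TATAA (the TATA box) or GGGCGG (the GC box) on either strand. Capitals mark these matches, and the 3 motifs share no overlap in these windows.
Col1a2: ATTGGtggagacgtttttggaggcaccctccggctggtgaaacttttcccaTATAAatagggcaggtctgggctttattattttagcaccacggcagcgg
Lrat: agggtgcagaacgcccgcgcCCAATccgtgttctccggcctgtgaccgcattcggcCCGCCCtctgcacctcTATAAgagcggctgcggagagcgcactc
Hgf: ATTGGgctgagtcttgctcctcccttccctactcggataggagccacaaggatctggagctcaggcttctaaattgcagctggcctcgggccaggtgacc
Acta2: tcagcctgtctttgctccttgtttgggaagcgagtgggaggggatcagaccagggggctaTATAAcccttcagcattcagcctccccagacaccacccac

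The Col1a2 window is chr4:33518336-33518435 on the plus strand, from 221 to 122 bases before the start. On the minus strand lie the windows of Lrat (chr2:170571213-170571312, 100 to 1 bases before the start), Hgf (chr4:19700615-19700714, 247 to 148 bases before it) and Acta2 (chr1:241172504-241172603, 100 to 1 bases before it). Col1a2 and Lrat share a CCAAT and a TATAA match, Lrat also holds GGGCGG, Hgf holds CCAAT alone and Acta2 TATAA alone. Such matches are common: in the same 250 bases, 34.0% of 33469 promoters hold CCAAT, 24.0% hold TATAA and 30.5% hold GGGCGG. A match is a description of letters and not a site of binding.

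In their place in the table, the probe sets ranged from low to high score, and most were among the more variable. The score of Col3a1, the gene of type III collagen, which forms fine reticulin fibres, averaged 11.43 and stood at percentile 97.1 of all probe sets. Col1a2 and Col1a1, the chains of type I collagen, averaged 8.938 and 8.102 (percentiles 81.3 and 68.3). Lrat, the enzyme that esterifies retinol for storage, averaged 8.634 (percentile 77.3) and Dcn, the small proteoglycan decorin that binds collagen fibrils, 8.049 (percentile 67.2). Lower were Des at 7.504, Acta2, smooth muscle alpha-actin, at 7.349 and Hgf, the growth factor that acts on hepatocytes through the Met receptor, at 7.187 (percentiles 54.5, 49.5 and 43.6). Lum, lumican, a relative of decorin, stood lowest at 6.663 (percentile 19.5). These ranks order probe sets, whose affinities differ, and not amounts of RNA.

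The spread between animals was wide for the matrix genes. The SD of the score was 0.00299 for Lum and 0.00227 for Dcn, and 0.995% of probe sets had an SD above that of Dcn. Col1a1 (0.000512), Col1a2 (0.0003), Lrat (0.000159) and Col3a1 (0.000137) lay between percentiles 93.9 and 97.4. Acta2 stood at percentile 84.7 and Hgf at 69.3, while Des, at 3.11e-06, was at percentile 22.1. The spread is not a fixed property of a gene here. The brighter probe set of Col1a1 had an SD 11.9 times that of the other, and for Col1a2 the ratio was 3.31. The probe sets of a gene nevertheless ordered the livers alike. The Pearson r over 12 livers was 0.93 for Col1a1 (permutation p = 1e-05, the smallest 100000 permutations can give, Spearman rho = 0.95, permutation p = 2e-05) and 0.87 for Col1a2 (permutation p = 0.00036, rho = 0.91, permutation p = 7e-05). Without the 2 livers farthest from the median r was 0.87 and 0.90.

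**Figure D1:**
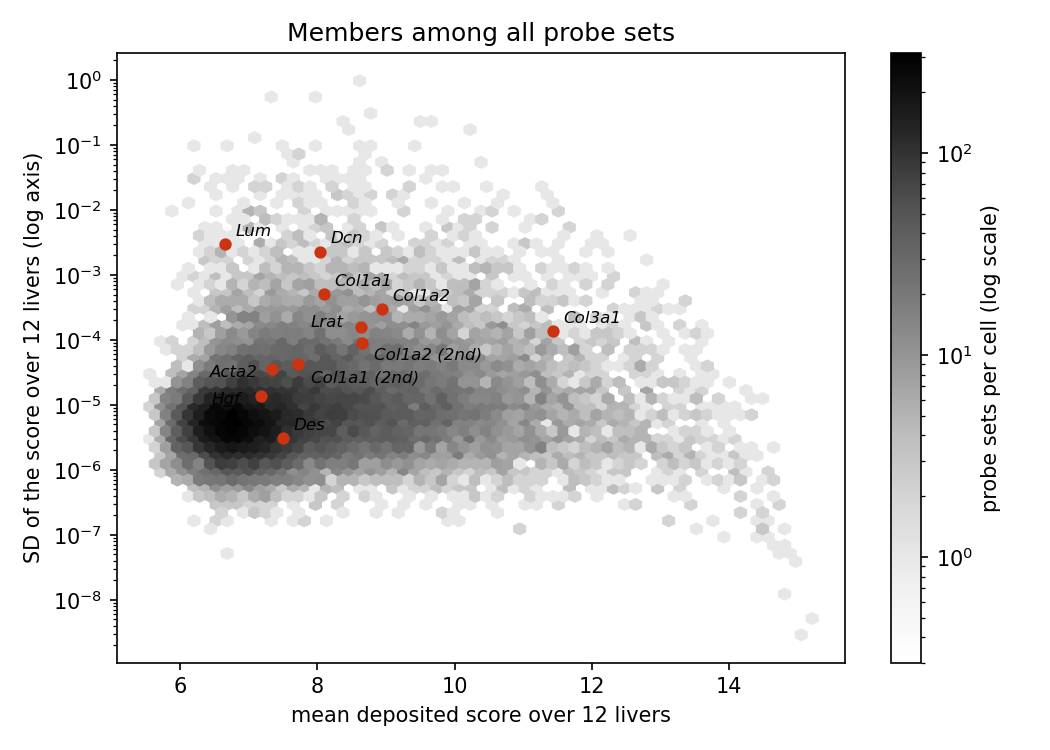
Mean deposited score (x axis) against the SD of the score over 12 livers (y axis, log scale) for all probe sets in grey, with the 11 probe sets of the 9 genes in red; "2nd" marks the dimmer probe set of a gene. Lum (SD 0.00299) and Dcn (SD 0.00227) lie near the top of the cloud, and Des (SD 3.11e-06) lies in its lower part.

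The diets were compared first for the fibrillar collagens. In the sugar mix livers Col1a1 ran from -0.98 to 1.75 with a median of -0.01, and in the maple syrup livers from -1.31 to 1.06 with a median of -0.21. The diets overlapped, with the 2 highest livers both from the sugar mix group. The g of Col1a1 was -0.45 (95% interval -1.5 to 0.62), the maple syrup animal was higher in 13 of 36 pairs of 1 animal of each diet, and an exact permutation test gave p = 0.416. Its dimmer probe set had a g of -0.67 (-1.74 to 0.43).

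Col1a2 ran from -1.07 to 1.43 (median 0.20) with the sugar mix and from -2.03 to 0.88 (median -0.15) with maple syrup. The ranges overlapped, and the lowest liver of all was maple syrup replicate 2. The g was -0.35 (-1.40 to 0.71; exact permutation p = 0.513), and 0.16 (-0.89 to 1.20) from the dimmer probe set, so that the probe sets of Col1a2 differed in sign. Col3a1 ran from -1.08 to 0.64 (median 0.34) with the sugar mix and from -2.50 to 0.91 (median 0.48) with maple syrup. Maple syrup replicate 2 again lay lowest, while the highest 3 livers were also from the maple syrup group. Its g was -0.07 (-1.12 to 0.97; exact permutation p = 0.918).

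The proteoglycans showed no clearer separation. Dcn ran from -1.21 to 1.62 (median 0.18) with the sugar mix and from -1.79 to 0.92 (median 0.09) with maple syrup, with a g of -0.48 (-1.53 to 0.60). Lum ran from -1.55 to 0.71 (median 0.17) and from -1.29 to 1.83 (median -0.08) in the same order of diets, with a g of 0.05 (-0.99 to 1.10). In either gene the diets overlapped over most of their range. The exact permutation p was 0.392 for Dcn and 0.916 for Lum.

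The diets were then compared for Lrat, Hgf and Des. Lrat ran from -2.02 to 1.31 (median 0.06) in the sugar mix livers and from -1.10 to 1.08 (median 0.24) in the maple syrup livers. Its g was 0.14 (-0.91 to 1.18; exact permutation p = 0.799). Hgf ran from -1.19 to 1.80 (median -0.46) and from -0.87 to 1.63 (median -0.17), with a g of 0.28 (-0.78 to 1.32; exact permutation p = 0.610). Des ran from -2.0 to 0.78 (median 0.18) and from -1.16 to 1.83 (median 0.02), with a g of 0.13 (-0.92 to 1.18; exact permutation p = 0.812). Sugar mix replicate 2 was the lowest liver in each of these 3 genes, and the diets overlapped in all of them. These intervals reach about 1 SD in either direction, so differences of that size were not excluded with 6 animals a diet.

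Acta2 had the widest gap between the diets. The sugar mix livers ran from -0.20 to 1.53 with a median of 0.50, and the maple syrup livers from -1.59 to 0.42 with a median of -0.56. Maple syrup replicates 2, 3 and 6 lay below every sugar mix liver, while the other 3 lay within the sugar mix range. The g was -1.35 (-2.52 to -0.13), and the maple syrup animal was higher in 7 of 36 pairs. An exact permutation test gave p = 0.0433 and limma an unadjusted p of 0.0242, but the Benjamini-Hochberg adjusted p over all probe sets in limma was 1.00 (0.73 to 1.00 over the alternatives). The moderated t of -2.62 became -0.86 when each array was centred on its median. However, the SD of Acta2 (3.57e-05) is below that of the array medians subtracted from it (4.86e-05). Acta2 also moved with the control probe sets at the 5' and 3' ends of the GAPDH transcript (r = 0.77 and 0.73 over the 12 arrays) and of beta-actin (0.51 and 0.60), but not with those of hexokinase (-0.15 and -0.38). Of 6 Kupffer cell markers 5 had a lower mean with maple syrup, against 52.9% of all named genes. The median g of the 6 was -0.70, and 0 were called by limma. The other marker, Clec4f, had a g of 0.43 and an r of 0.03 with Acta2. The mean level of the 6 markers ran from -0.50 to 1.11 SDs with the sugar mix and from -1.50 to 0.99 with maple syrup. Their median r with Acta2 was 0.45, with 2 of 6 at 0.5 or above, against 5.43% of all named genes. Of the vascular smooth muscle markers outside the 9 genes 2 of 6 also reached 0.5 with Acta2 (median r 0.08). Of the stellate cell markers outside the 9 genes 1 of 10 did (median r 0.2). The parts of these control probe sets and markers in the Acta2 difference were not tested.

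Over the whole table limma called 0 of 31042 probe sets (0.0%) at an adjusted p of 0.05, with the smallest adjusted p at 0.915. At an unadjusted limma p under 0.05 there were 1264 probe sets (4.07%), of which 666 were lower with maple syrup (2.15%) and 598 higher (1.93%). Of the 11 probe sets described here 0 were called and 1, that of Acta2, had an unadjusted p under 0.05. By exact permutation 1252 probe sets (4.03%) had a p under 0.05, again 1 of them among the 11. The diets did not overlap in 33 probe sets (0.106%) and in 0 of the 11. The mean was lower with maple syrup in 6 of the 11 probe sets and in 51.4% of all.

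**Figure D2:**
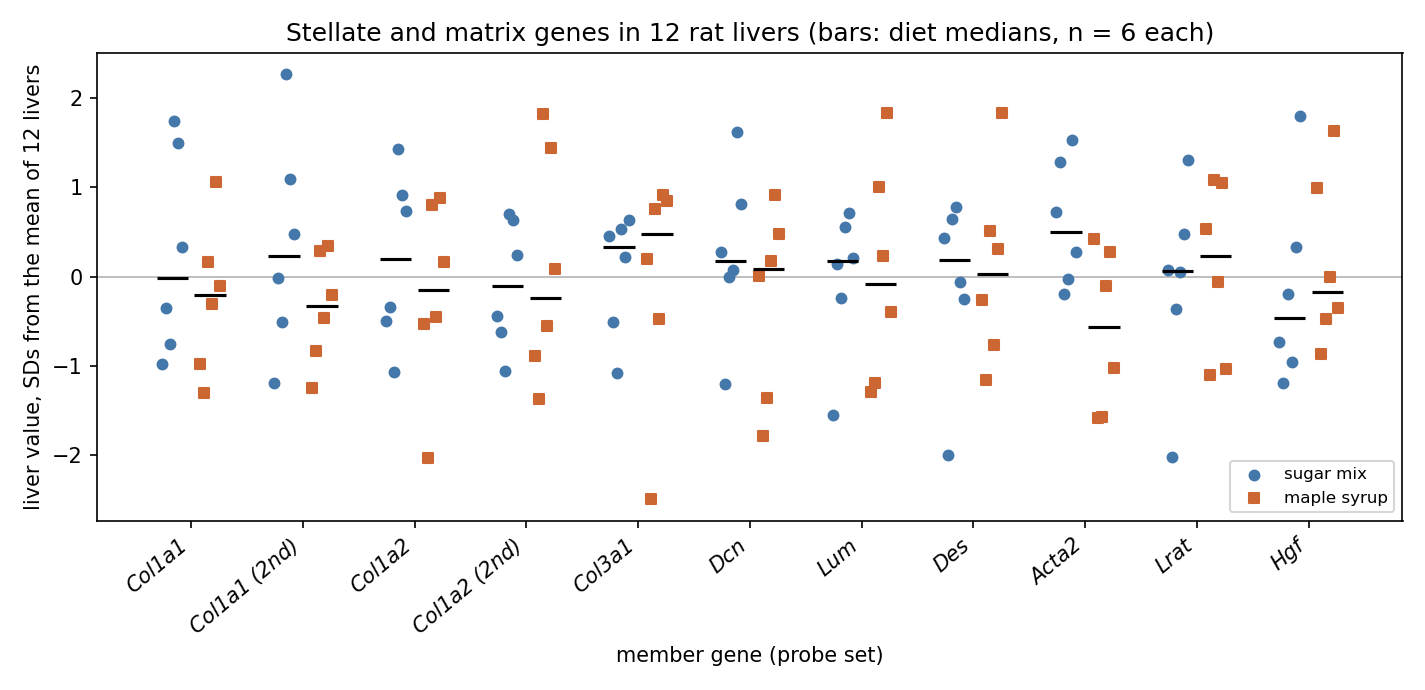
Value of each of 12 livers (y axis, SDs from the mean of the 12 livers) for the 11 probe sets (x axis); blue circles are sugar mix livers, orange squares maple syrup livers, and black bars the diet medians (n = 6 each). The diets overlap in every probe set, and Acta2 has the widest gap between medians (0.50 and -0.56).

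The livers themselves differed over several of the genes at once. Counting the brightest probe set of each gene, maple syrup replicate 2 lay below the mean in all 9 genes and was the lowest liver in 5. Sugar mix replicate 2 was below the mean in 7 and lowest in 3. At the other end, maple syrup replicate 5 lay above the mean in all 9 genes, between 0.28 and 1.83 SDs, and was the highest liver in 2. The labels give nothing that sets these animals apart.

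Covariation was measured as the correlation over the 12 livers for all 36 pairs of the 9 genes, with the brightest probe set of each. The r was above 0 in 35 of the 36 pairs, with a median of 0.41, against 50.6% of pairs and a median of 0.005 over all pairs of named genes. In 14 of 36 pairs r was at least 0.5, against 6.42% of all pairs. After adjustment over the 36 pairs 3 passed, and 7 had an unadjusted permutation p under 0.05. Without maple syrup replicate 2 the median r was 0.26, 29 pairs were above 0, 7 were at least 0.5, and 1 pair passed, that of Col1a1 and Col1a2. The array median had an r of 0.47 with Col1a1, 0.24 with Col1a2, 0.0 with Col3a1, 0.40 with Lum and 0.60 with Dcn. For the array mean these values were 0.17, 0.02, -0.13, 0.60 and -0.03, in the same order. For the GAPDH 3' control probe set they were -0.23, -0.11, 0.13, -0.52 and 0.27. The part of these measures in the correlations was not tested.

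The type I collagen chains, which assemble into 1 triple helix, formed the closest pair. The r of Col1a1 and Col1a2 was 0.90 (permutation p = 2e-05, adjusted p = 0.00072), and rho was 0.97 (permutation p = 1e-05). Sugar mix replicates 4 and 5 were the 2 highest livers for Col1a1 and also lay high for Col1a2, and maple syrup replicate 2 was lowest for both. The r was 0.93 within the sugar mix group, 0.90 within the maple syrup group and 0.89 without the 2 livers farthest from the median (permutation p = 0.00084). Of all 14216 other named genes, Col1a2 was the one with the highest r with Col1a1. With the dimmer probe sets of both genes r was 0.64, with an adjusted p of 0.172, so the call rested on the brighter ones.

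Col1a2 and Col3a1 had an r of 0.84 (permutation p = 0.00061, adjusted p = 0.011) and a rho of 0.70 (permutation p = 0.0144, adjusted p = 0.13). The r was 0.75 within the sugar mix group and 0.94 within the maple syrup group. It was 0.75 without the 2 livers farthest from the median (adjusted permutation p = 0.139). Without maple syrup replicate 2 it was 0.71, where the adjusted permutation p was 0.154. The r of Col1a1 with Col3a1 was 0.57 (permutation p = 0.0490, adjusted p = 0.183) and rho was 0.64 (permutation p = 0.0283). Col1a1 thus ordered the livers like Col1a2 but was not shown to follow Col3a1.

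Lum was the third gene with the type I collagens. Its r with Col1a1 was 0.79 (permutation p = 0.00238, adjusted p = 0.0286) and rho was 0.83 (permutation p = 0.00143, adjusted p = 0.0257). The r was 0.80 within the sugar mix group and 0.95 within the maple syrup group, and 0.91 without the 2 livers farthest from the median. Without maple syrup replicate 2 it was 0.75, with an adjusted permutation p of 0.138. The pair also did not pass without maple syrup replicate 1 (adjusted permutation p = 0.0754), 5 (0.0692) or 6 (0.0506), or without sugar mix replicate 1 (0.066). It passed with each other liver left out alone. With Col1a2 the r of Lum was 0.72 (permutation p = 0.00842, adjusted p = 0.0631), and the adjusted p of rho, 0.79, was 0.0396. Dcn, a proteoglycan of the same family, had an r of only 0.28 with Lum (permutation p = 0.384, rho = 0.29, permutation p = 0.357).

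For the collagens with Lrat, Hgf, Des and Dcn, r ran from 0.23 to 0.57 over the 12 pairs, with a median of 0.47. In the 6 pairs with Lrat or Hgf, the genes linked with the resting state, it ran from 0.23 to 0.56. Of the 12 pairs 0 passed, and 0 had an unadjusted permutation p under 0.05 for r. For rho 2 had one, Col3a1 with Lrat and Col1a1 with Dcn, and 0 passed after adjustment. Col3a1 and Lrat had an r of 0.56 (permutation p = 0.0562, adjusted p = 0.183) and a rho of 0.61 (permutation p = 0.0401, adjusted p = 0.18). The r was 0.64 within the sugar mix group, 0.59 within the maple syrup group and 0.54 without the 2 farthest livers. Livers high in Col3a1 were mostly high in Lrat, but maple syrup replicate 6 had 0.85 for Col3a1 and -1.04 for Lrat. Col1a1 and Lrat had an r of 0.41 (permutation p = 0.187, rho = 0.43, permutation p = 0.161), and Col1a1 and Hgf an r of 0.23 (permutation p = 0.467, rho = 0.22, permutation p = 0.482). Sugar mix replicate 4, the highest liver for Col1a1 at 1.75, was at -0.96 for Hgf.

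In pairs of Col3a1 with Des and with Dcn r was 0.57 each (permutation p = 0.0609 and 0.0528, adjusted p = 0.183 for both), and rho was 0.57 for both (permutation p = 0.0575 and 0.0597). They moved in opposite ways without the 2 livers farthest from the Col3a1 median: r became 0.83 with Des (adjusted permutation p = 0.0144) and 0.28 with Dcn. Without maple syrup replicate 2 the median of the 12 was 0.29.

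Lrat and Hgf, the genes linked with the resting state, had an r of 0.72 (permutation p = 0.00877, adjusted p = 0.0631), with a rho of 0.68 (permutation p = 0.0186, adjusted p = 0.134). The r was 0.79 within the sugar mix group and 0.63 within the maple syrup group, but 0.56 without the 2 farthest livers (permutation p = 0.0908). Dcn and Hgf had an r of 0.61 (permutation p = 0.0331, adjusted p = 0.183, rho = 0.63, permutation p = 0.0312). Acta2 and Des, both filament genes, had the one negative r with the scores as deposited, -0.31 (permutation p = 0.339, rho = -0.28, permutation p = 0.380). With each array centred on its median this r was 0.70 (adjusted permutation p = 0.0443), but the SDs of Des (3.11e-06) and Acta2 (3.57e-05) are below that of the array medians subtracted from both (4.86e-05). With Lrat the r of Acta2 was 0.02.

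**Figure D3:**
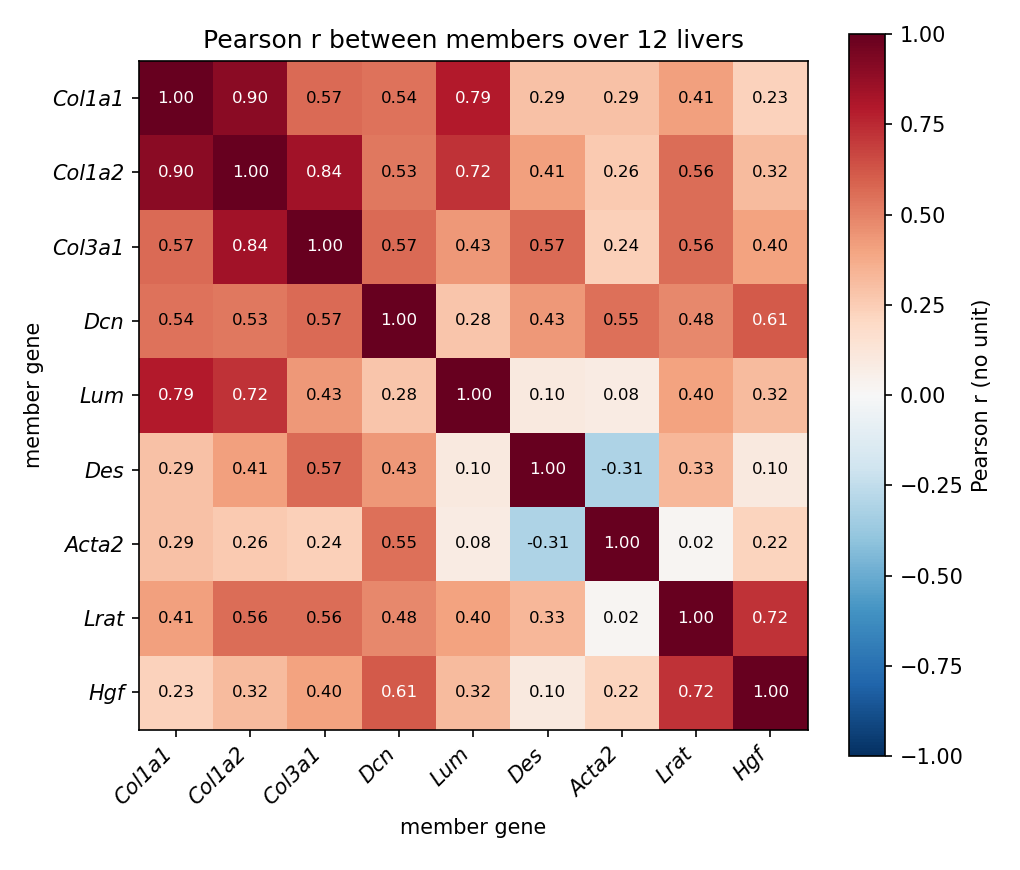
Pearson r over 12 livers for each pair of the 9 genes (rows and columns), with the value printed in each cell; red is above 0 and blue below. The warm block at the upper left holds the collagen pairs (0.57, 0.84 and 0.90), and the one negative value off the diagonal is that of Des and Acta2 (-0.31, or 0.70 with median centring).

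**Figure D4:**
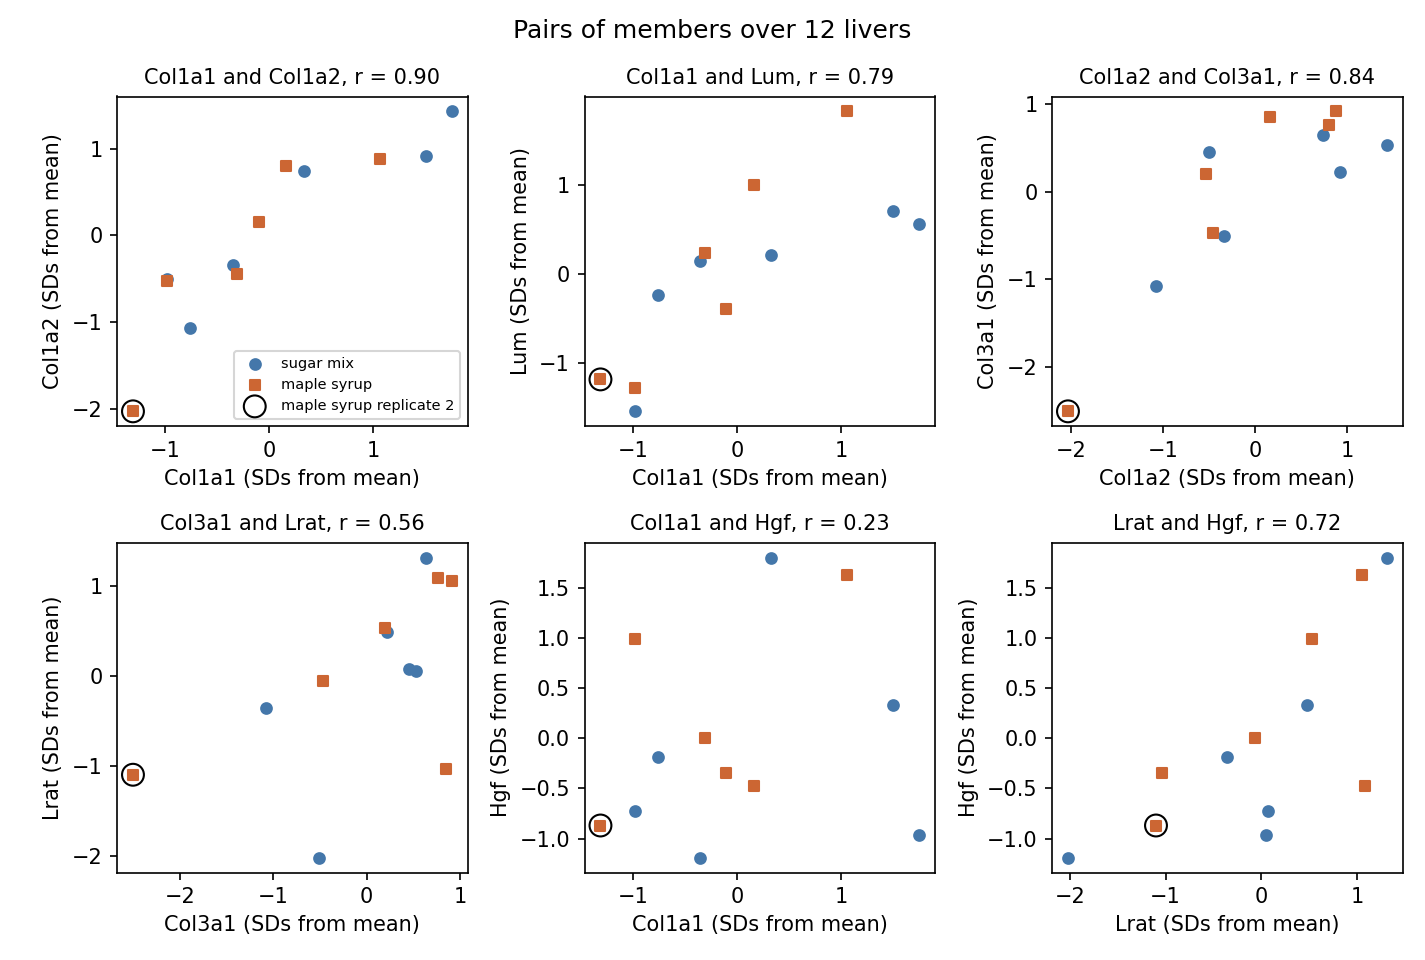
Livers by their values in 6 pairs of genes (both axes in SDs from the mean of 12 livers); blue circles are sugar mix livers, orange squares maple syrup livers, and a ring marks maple syrup replicate 2. Col1a1 and Col1a2 lie along a line in both diets (r = 0.90), while Col1a1 and Hgf scatter widely (r = 0.23).

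The genes outside the 9 that were most like each of 5 members were then listed by r over the 12 livers, as a description. For Col1a1 they were Gsn, an actin-severing protein (0.87), Lox, the enzyme that crosslinks collagen (0.85), Prorp, a subunit of mitochondrial RNase P (0.85), Ecm2 (0.84) and Spon1 (0.83), the last 2 matrix proteins. For Col3a1 they were Bgn, the proteoglycan biglycan (0.94), Sparcl1, a matrix protein related to Sparc (0.89), Ltbp1, which binds latent TGF-beta (0.88), Lamb1, a laminin chain (0.87), and Cdk14 (0.87). Without maple syrup replicate 2 these 10 values lay between 0.78 and 0.91.

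The same was done for Dcn, Lrat and Hgf. With Dcn the genes were Slc39a7, a zinc transporter (0.91), Trub1 (0.89), Lpl, lipoprotein lipase (0.88), Zzef1 (0.87) and Sec16a, of the endoplasmic reticulum exit sites (0.87). Lrat was followed by Ube2q2 (0.93), Adipor1, an adiponectin receptor (0.92), Adgrl2 (0.91), Tmem245 (0.89) and Thap11 (0.87). Beside Hgf stood Calcrl, the calcitonin receptor-like receptor (0.96), Lmbrd1 (0.93), Maml2 (0.92), Otud5 (0.92) and Zhx1 (0.90). These are the highest values over all named genes, and were selected as such.

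Lists of related genes were read against Col1a1 and Col3a1, since 4.26% of all named genes had an r of at least 0.5 with Col1a1 and 5.37% with Col3a1. Of 10 stellate cell markers outside the 9 genes, 6 had such an r with Col3a1 and 0 with Col1a1. The 6 were Reln, the secreted protein reelin (0.83), Ecm1 (0.79), Colec11 (0.60), the transcription factors Lhx2 (0.60) and Tcf21 (0.55), and Cygb, cytoglobin (0.53). Without maple syrup replicate 2 the count with Col3a1 was 3 of 10 (Reln, Ecm1 and Cygb, at 0.81, 0.63 and 0.55), where 6.23% of all genes reached it. Ngfr and Gfap, also used as stellate cell markers, had r of -0.36 and -0.24 with Col3a1. Whether Col3a1 and Col1a1 differ in this was not tested.

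Among the markers of other cells that could hold these transcripts, 3 of 6 vascular smooth muscle markers outside the 9 genes had an r of at least 0.5 with Col1a1, and 1 of 6 with Col3a1. Myh11, smooth muscle myosin, had an r of 0.76 with Col1a1, and Tagln, transgelin, 0.65. Of 7 portal fibroblast markers and 5 mesothelium markers, 0 had such an r with either collagen. One of 4 cholangiocyte markers did with Col1a1: Spp1, osteopontin (0.80). The count with Col1a1 was 0 of 6 for hepatocyte, for Kupffer cell and for sinusoidal endothelial markers alike. With Col3a1 it was 1 of 6 hepatocyte markers (Apoa1, 0.52), 1 of 6 sinusoidal endothelial markers (Stab1, 0.63), 0 of 6 Kupffer cell markers and 1 of 3 T cell markers (Cd3e, 0.59). These counts were 0, 2, 0 and 1 without maple syrup replicate 2, with Stab1 at 0.57, Fcgr2b at 0.66 and Cd3e at 0.84. Without that liver 2 of 6 smooth muscle markers (Smtn 0.59, Myh11 0.55) and 1 of 4 cholangiocyte markers (Spp1 0.56) reached it with Col3a1. For portal fibroblast and mesothelium markers the count with Col3a1 stayed 0. The mean level of the smooth muscle list ran from -0.43 to 0.73 SDs in the sugar mix livers and from -0.55 to 0.68 in the maple syrup livers. That of the stellate cell list ran from -0.62 to 0.63 and from -1.14 to 0.42. The part of other cell types in the collagen values was not tested.

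The other matrix genes are read against the same shares of all genes, with no test of a list. Of 19 other collagen genes, 6 had an r of at least 0.5 with Col1a1 and 7 with Col3a1. The basement membrane chains Col4a1 and Col4a2 had r of 0.81 and 0.77 with Col3a1, Col5a2, of a minor fibrillar collagen, 0.73, and Col6a1, of a beaded filament collagen, 0.77. In the same order they had 0.82, 0.70, 0.41 and 0.67 without maple syrup replicate 2. Among other matrix proteins the count at 0.5 or above was 8 of 25 with Col1a1 and 11 of 25 with Col3a1, and among the other small leucine-rich proteoglycans 3 and 4 of 7. Without maple syrup replicate 2 the counts with Col1a1 were 3 of 19, 7 of 25 and 1 of 7, and those with Col3a1 6 of 19, 10 of 25 and 3 of 7. Of 17 genes of collagen processing, 3 reached it with Col1a1 and 4 with Col3a1. Lox was at 0.85 with Col1a1, and Sparc, a collagen-binding glycoprotein, at 0.84 with Col3a1, whereas Serpinh1, the collagen chaperone of the endoplasmic reticulum, was at 0.30 and 0.47.

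Of 18 genes of retinoid storage and handling other than Lrat, 0 had an r of at least 0.5 with Col1a1 or Col3a1, 1 with Lrat, where 6.4% of all genes did, and 2 with Hgf, where 8.41% did. Rbp4, the plasma retinol carrier made by hepatocytes, had an r of -0.08 with Lrat. Of 9 genes of the HGF system, 0 reached it with Hgf. Met, the receptor, was at 0.42 with Hgf, and Hgfac, the protease that activates the factor, at 0.16. Of the 19 genes of TGF-beta and PDGF signalling, 1 reached it with Col1a1 and 3 with Col3a1. Ltbp1 was at 0.67 and 0.88, Ltbp2, of the same family, at 0.27 and 0.73, and the PDGF receptor Pdgfra at 0.19 and 0.66, or 0.32 with Col3a1 without maple syrup replicate 2. Tgfb1 was at 0.16 and 0.29, and Pdgfrb, a receptor on stellate cells, at 0.16 and 0.27. Of 11 genes of matrix breakdown 2 reached it with Col1a1 and 1 with Col3a1, or 0 and 2 without maple syrup replicate 2. Mmp2, a gelatinase, was at 0.57 and 0.85, and Timp1, an inhibitor of matrix proteases, at 0.31 and 0.44.

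**Figure D5:**
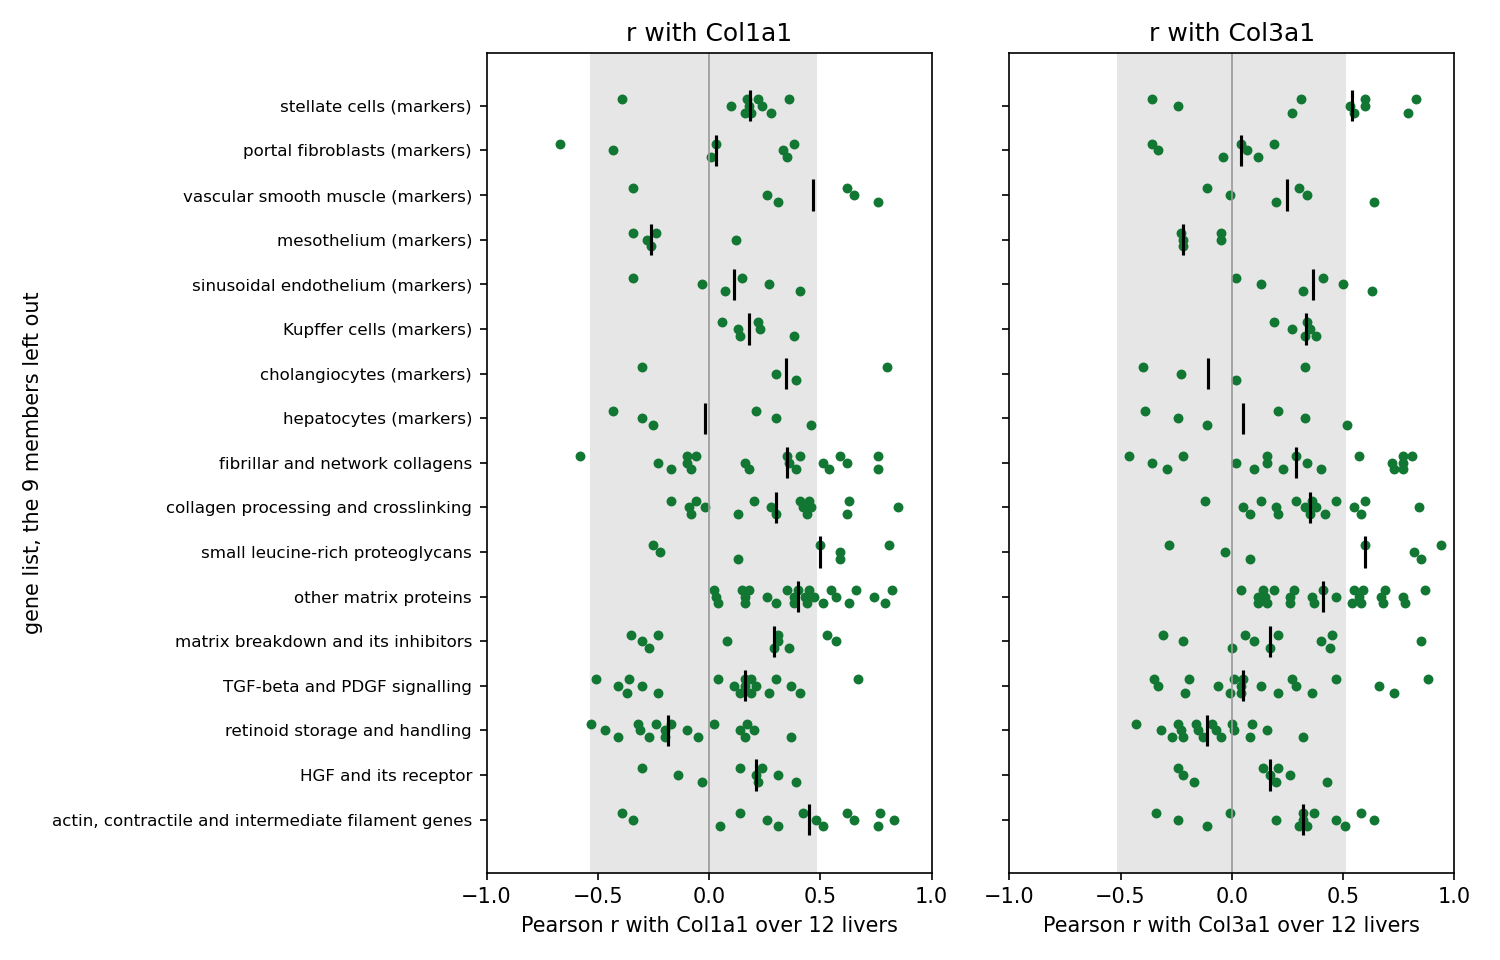
Pearson r over 12 livers of the genes of each list (rows, the 9 genes left out) with Col1a1 (left) and Col3a1 (right); each point is a gene, black ticks are list medians, and the grey band holds the middle 90% of all named genes. The stellate cell markers have a median of 0.18 with Col1a1 and 0.54 with Col3a1, and retinoid genes have medians of -0.18 and -0.11.

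Between the diets, 0 of the 146 measured genes of these matrix, signalling, retinoid and filament lists were called in either direction by limma after adjustment. The mean was higher with maple syrup in 68 and lower in 78, with a median g of -0.04, the same as over all named genes (-0.04). Over all probe sets 4.07% had an unadjusted limma p under 0.05, and in a fit with 1 probe set a gene 616 of 14217 did. Of the 146, also read by 1 probe set a gene, 9 had one. Beside Acta2 these were the collagen genes Col4a5 (g = 1.5) and Col8a1 (1.30), the prolyl hydroxylase subunits P4ha2 (1.19) and P4hb (-1.64), Crtap (1.84), which takes part in collagen hydroxylation, the collagenase Mmp13 (-2.16), the growth factor Pdgfc (1.19) and the retinal reductase Dhrs3 (1.40). The adjusted limma p was 1.00 for each, and the signs were mixed. Mmp13 lay at percentile 5.4 of the score. Fn1, fibronectin, had a g of 0.75, Vim, vimentin, -0.22 and Lox 0.17.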

How the data were processed

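Affymetrix array values for 12 rat livers, 6 per diet, were used as the authors deposited them, as a score per probe set; how it was summarised and normalized is not given in the sources used here. The labels' protocols state biotinylated cRNA from 2 ug of RNA. Depth does not apply to arrays, and detection calls were not used. The design had assumed log2-like values; the test was kept because it uses each probe set's own spread. The 57 control probe sets were left out, and 20826 probe sets had 1 symbol. The members and lists were chosen with earlier results of these data known.

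The diet difference was fitted across the table in R 4.3.3 by limma 3.58.1 (lmFit and trended eBayes, prior degrees of freedom 0.707, two-sided, Benjamini-Hochberg over all 31042 probe sets) and by exact two-sided permutation of all 924 arrangements, which cannot give a p under 0.00216. Correlations used 100000 two-sided permutations (scipy 1.17.1), adjusted over 36 pairs. The intervals of g come from the noncentral t distribution. Named genes are the 9 members, the 5 genes most alike to each of 5 members, a fixed set from the lists, and list genes with an unadjusted p under 0.05; other list genes named were chosen after their values were seen. Scripts were tested on simulated data. Alternatives were other array normalizations, filters, probe set rules, variance models, the replicate number as a block and each array left out. Replicate numbers did not pair the samples.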

Additional observations from a re-analysis of the deposited data

Results flagged for a closer look

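Des in sugar mix replicate 2 stood at -2.0 SDs, and its distance to the next liver was 0.63 of the range of the 6 sugar mix livers. This was 1 of 22 combinations of a diet and a probe set, where chance gives such a gap in about 1 in 20, or 1.1.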

How the results depend on the processing

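The counts of probe sets and of members called between the diets were 0 under all 20 alternatives each. The moderated t changed sign with quantile normalization for the dimmer probe sets of Col1a1 (0.70) and Col1a2 (-1.09), Des (-0.82) and Hgf (-0.85), with median centring for Col3a1 (0.11) and with array weights for Lum (-0.06). With 1 array left out at a time it ran from -0.32 to 0.83 for the dimmer Col1a2 probe set, -0.51 to 1.09 for Col3a1, -0.58 to 0.56 for Lum, -0.44 to 0.64 for Des and -0.47 to 0.76 for Lrat. For Acta2 it ran from -3.09 to -2.19. The unadjusted limma p of Acta2 was not under 0.05 without maple syrup replicate 2, without maple syrup replicate 3 or with median centring.

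The count of correlated pairs, 3, was 6 with median centring, 1 without both replicate 2 livers (chosen after seeing the data), and 0 with quantile normalization, where Col3a1 was constant and 28 pairs were left, or with the dimmer probe sets (also chosen after seeing the data). With 1 array left out there were 1 to 4. The 3 pairs that median centring added were Des with Hgf (0.96), Des with Acta2 (0.70) and Acta2 with Hgf (0.71). Each of these genes has an SD (3.11e-06, 1.38e-05 and 3.57e-05 for Des, Hgf and Acta2) below that of the array medians (4.86e-05), so the subtraction itself puts a shared term into them, and the added pairs say nothing of covariation. Centring left 25 of 36 pairs above 0, a count that includes pairs that hold Des, Hgf or Acta2. Among the collagen pairs with Lrat, Hgf, Des or Dcn, r changed sign for Col1a1 with Des (-0.37) and Hgf (-0.34) and for Col1a2 with Des (-0.05). Outside them it turned, among others, for Dcn with Des (-0.56), Hgf (-0.43) and Acta2 (-0.19). Every pair that changed sign with centring holds Des, Hgf or Acta2, so these changes say nothing of covariation either. The r also changed sign with the dimmer probe sets for Col1a1 with Hgf (-0.0). Quantile normalization gave Col1a1 and Col1a2 an r of 0.66 (adjusted permutation p = 0.219). The cause of the other changes was not tested.

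Same-numbered livers did not deviate together (r from -0.039 to 0.129), and 0 sugar mix livers correlated best with their own number, so the replicate number as a block is given here alone. Over the 6 differences of a replicate block 0 pairs passed, with r of 0.93 for Col1a1 and Col1a2 (adjusted exact permutation p = 0.3) and 0.92 for Col1a2 and Col3a1 (0.333). The block turned r for Dcn with Col1a1 (-0.82), Col1a2 (-0.82) and Col3a1 (-0.67), and for Hgf with Col1a1 (-0.18), Col1a2 (-0.11) and Col3a1 (-0.21). The number of arrays and the unknown scale of the score limit all values.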
